A study of Mus musculus with 8 samples.

Results

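The genes of Fc gamma receptors and of the proteins that carry or limit their signal were compared between endocardially derived cardiac macrophages (EcTM) and cardiac macrophages without that origin (non-EcTM). The group was defined by name and held 8 genes of the 24516 in the count table: the receptors Fcgr1, Fcgr2b, Fcgr3 and Fcgr4, the signalling chain Fcer1g, the IgG transport receptor Fcgrt, the kinase Syk and the phosphatase Inpp5d. All 8 were in the table, 7 had counts, and these 7 passed the filter on low counts. Both came from FACS-sorted cells of C57BL/6 mouse hearts at postnatal day 28, all with the genotype Nfatc1Cre/+; Rosa26Tomato reporter/+, so both carry the Cre allele and the reporter. Nfatc1 is active in the endocardium, the inner lining of the heart, and a cell in which Cre has acted keeps the Tomato colour in all its descendants. The gates of the sort are not given in the labels. There were 4 EcTM libraries (E591, E592, E604 and E606) and 4 non-EcTM libraries (N591, N592, N604 and N606), and libraries of the same number were treated as a pair. Whether a number stands for an animal, a litter or a pool is not stated in the labels. The p-values of paired fits rest on the spread left between these libraries after fitting number and group, which may be in part technical.

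Fc gamma receptors bind the constant part of IgG antibodies and let macrophages take up antibody-coated particles. The activating receptors have no signalling motif of their own and depend on the shared gamma chain, whose immunoreceptor tyrosine-based activation motif (ITAM) is phosphorylated by Src-family kinases and then docks Syk. The inhibitory receptor Fcgr2b carries a related inhibitory motif (ITIM) that recruits the lipid phosphatase encoded by Inpp5d. The neonatal Fc receptor Fcgrt works apart from this pathway: paired with beta-2-microglobulin, it rescues IgG and albumin from degradation in endosomes.

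The motifs that set activating and inhibitory chains apart are shown as coding DNA from GENCODE M21 transcripts (GRCm38, transcript strand, both genes on the minus strand of chromosome 1), with tyrosine codons in capitals. The Fcer1g motif lies in codons 65 to 79 of 86 and the Fcgr2b motif in codons 317 to 322 of 340.
Fcer1g ITAM: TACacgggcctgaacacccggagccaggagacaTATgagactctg
Fcgr2b ITIM: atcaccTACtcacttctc

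The genes Fcgr2b, Fcgr4, Fcgr3 and Fcer1g lie within 273792 bases of chromosome 1 (GRCm38, 170960558 to 171234349). Fcgr2b (Entrez 14130) and Fcgr3 (Entrez 14131) are close relatives, and their coding sequences were identical at 86.7% of 782 aligned bases, with an unbroken identical run of 129 bases. Identities between the other receptor pairs were 64.1% to 67.3%. The most alike 150 bases, codons 86 to 135 of Fcgr2b and 81 to 130 of Fcgr3, are shown because reads from them barely tell the genes apart, and the capital marks the single base that differs.
Fcgr2b: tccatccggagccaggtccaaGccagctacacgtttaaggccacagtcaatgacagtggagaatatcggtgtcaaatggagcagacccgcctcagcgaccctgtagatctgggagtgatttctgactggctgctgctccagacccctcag
Fcgr3: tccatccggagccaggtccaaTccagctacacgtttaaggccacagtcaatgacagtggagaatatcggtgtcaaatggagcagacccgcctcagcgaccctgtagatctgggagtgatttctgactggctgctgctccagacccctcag

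Of the distinct stretches of 50 bases in GENCODE transcripts, 166 were common to Fcgr2b and Fcgr3, 2.92% of those of Fcgr2b and 9.58% of those of Fcgr3. Counting every other gene, Fcgr2b had 395 stretches (6.95%) in common and Inpp5d had 44 (0.572%). Fcgr1, Fcgr4, Fcer1g, Fcgrt and Syk had 0 such stretches in common with another gene. The split of reads between Fcgr2b and Fcgr3 is uncertain, because the read length and the handling of reads that match both are not stated. Fcgr3 also overlaps the microRNA gene Mir6546, Fcgr4 the small nuclear RNA gene Gm26110 and Fcgrt the antisense gene Gm45669.

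**Figure D1:**
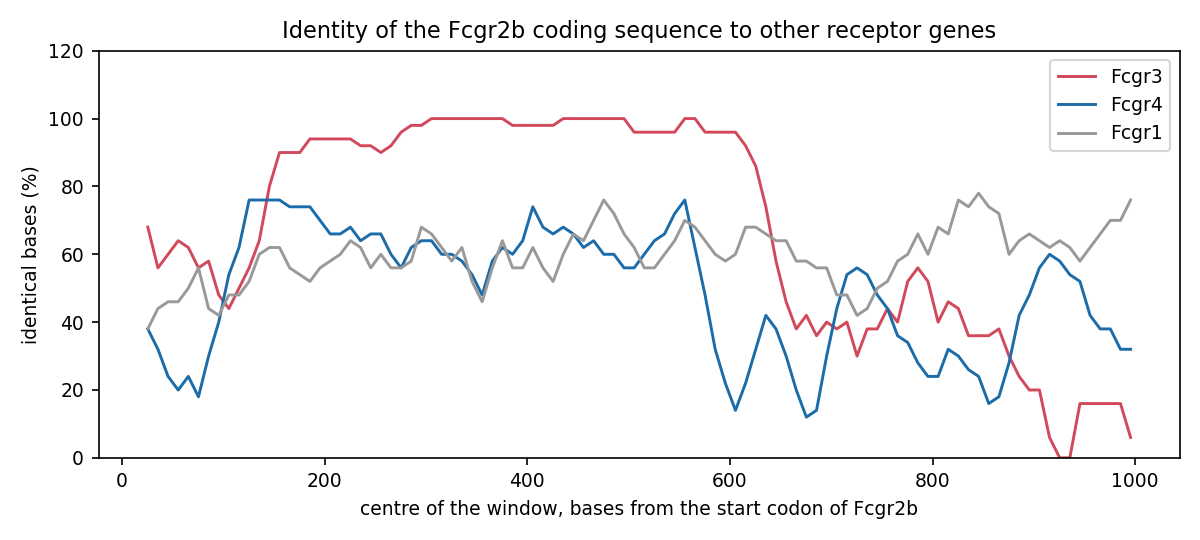
Percent of identical bases in windows of 50 bases along the Fcgr2b coding sequence (x axis, bases from the start codon) against Fcgr3, Fcgr4 and Fcgr1, with unaligned bases counted as different. Against Fcgr3, 24 of 98 windows reached at least 98%, all between bases 261 and 590, while no window did so against Fcgr4 or Fcgr1.

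Counts in genes summed to 2152425 to 2576407 in EcTM and to 2281657 to 2937464 in non-EcTM libraries. Taken as a sum, the defining macrophage markers were abundant in both groups. Of 13 markers 12 had counts, among them Csf1r, Adgre1, Mertk and C1qa. The 12 summed to 30507 to 31283 CPM (read counts scaled to library size) over the EcTM libraries. Over the non-EcTM libraries the sum was 28517 to 30937 CPM. Not every marker was abundant: Ptprc, which is among the 12, had 10.3 to 29.7 CPM over the 8 libraries, and Itgam was at 0. Markers of other cells that bear Fc receptors had lower sums than the macrophage markers. Of these markers, 5 of 6 for mast cells, 4 of 6 for natural killer cells and 3 of 8 for neutrophils were listed at 0, which is not read here as absence, since genes that most cells express were at 0 too. Natural killer cell markers summed to at most 3.16 CPM in EcTM, against 3.52 CPM in non-EcTM libraries, B cell markers to at most 6.71 CPM in EcTM, against 3.49 CPM in non-EcTM, and mast cell markers to at most 0.476 CPM in EcTM, against 0 in non-EcTM. Neutrophil markers summed to 8.58 to 27.6 CPM in EcTM, against 20.9 to 44.5 CPM in non-EcTM, with S100a9, Ly6g and Camp at 0 in all 8 libraries, and monocyte markers to 21.3 to 54.4 CPM in EcTM, against 43.2 to 99.3 CPM in non-EcTM. Endothelial markers, from cells that are known to use Fcgrt and Fcgr2b, summed to 25.0 to 318 CPM in EcTM and to 80.2 to 862 CPM in non-EcTM, with N591 the highest and Pecam1, Tek, Emcn and Esam at 0. All 4 tested endothelial markers had a log2 fold change below 0, 3 of them with an unadjusted p under 0.05 and 0 past the adjusted threshold. In sorted bulk libraries, fewer cells of a type and less RNA per cell cannot be told apart. The part of these marker differences in the values below was not tested, but each comparison was also made without E591 and N591.

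Levels of Fcgr3, Fcer1g and Fcgrt were close in EcTM and non-EcTM, with log2 fold changes of 0.04, -0.04 and 0.01, while the estimates for Fcgr1, Fcgr4, Syk and above all Fcgr2b were less precise. None of the 7 tested genes passed in the paired edgeR quasi-likelihood test across 7667 genes, with Benjamini-Hochberg adjusted p-values of 0.976 to 0.998, and none reached an unadjusted p under 0.05. The background was low too. Among all tested genes 1, or 0.013%, passed, the integrin gene Itga9, named here after its value was seen, and 5.4% had an unadjusted p under 0.05. Paired DESeq2 called 26 of the 2660 genes to which it gave an adjusted p (0.977%) and paired limma-voom 19 of 7667 (0.248%), and neither called any of the 7 or gave one an unadjusted p under 0.05, although DESeq2 gave Fcgr2b and Fcgr4 no adjusted p. The groups overlapped in every one of the 7 genes, against 2.7% of all tested genes whose libraries did not overlap (1.29% higher and 1.41% lower in EcTM). Of the 7, 1 went in one direction in 4 of 4 pairs, as did 14.2% of all tested genes (7.26% higher and 6.93% lower in EcTM). The median log2 fold change of the 7 was 0.01, and -0.01 over all tested genes.

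Among the activating receptors, Fcgr3 (chromosome 1, 171051169 to 171065915) encodes CD16, a low-affinity receptor for IgG complexes. It had 1268, 1398, 1370 and 1283 CPM in E591, E592, E604 and E606, against 1254, 1322, 1317 and 1272 CPM in N591, N592, N604 and N606. The EcTM library was the higher of its pair for every number, by 0.01 to 0.08 on the log2 scale, and the groups still overlapped. This was the gene that went one way in every pair. The means were 1329 ± 63.9 CPM in EcTM, against 1291 ± 33.8 CPM in non-EcTM (SD, n = 4 each), and the log2 fold change was 0.04 ± 0.06 (SE; edgeR adjusted p = 0.978). Its 95% interval ran from 0.941-fold to 1.12-fold.

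Fcgr1 (Entrez 14129, chromosome 3, 96282909 to 96293969) encodes CD64, the high-affinity IgG receptor widely used as a macrophage marker. It had 238, 173, 358 and 154 CPM in E591, E592, E604 and E606, against 265, 189, 310 and 193 CPM in N591, N592, N604 and N606. E604 and N604 were the highest of their groups and E591 and N591 came next, while EcTM lay below non-EcTM in 3 of 4 pairs and above it in E604 against N604. The means were 231 ± 91.9 CPM in EcTM, against 239 ± 58.7 CPM in non-EcTM (SD, n = 4 each). The log2 fold change was -0.10 ± 0.12 (SE; edgeR adjusted p = 0.976), with an interval from 0.792-fold to 1.11-fold.

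Fcgr4 (Entrez 246256, chromosome 1, 171018926 to 171029761) encodes a mouse receptor for IgG2 complexes. EcTM libraries had 89.6, 57.2, 41.7 and 47.4 CPM in the order of their numbers, and non-EcTM libraries had 44.9, 51.7, 64.6 and 40.9 CPM. E591 stood above the other 7 libraries, and the pair log2 differences ran from -0.62 for E604 against N604 to 0.98 for E591 against N591. The means were 59.0 ± 21.4 CPM in EcTM, against 50.5 ± 10.4 CPM in non-EcTM (SD, n = 4 each). The log2 fold change was 0.19 ± 0.25 (SE; edgeR adjusted p = 0.976), with an interval from 0.794-fold to 1.63-fold. Without E591 and N591 it turned to -0.09.

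**Figure D2:**
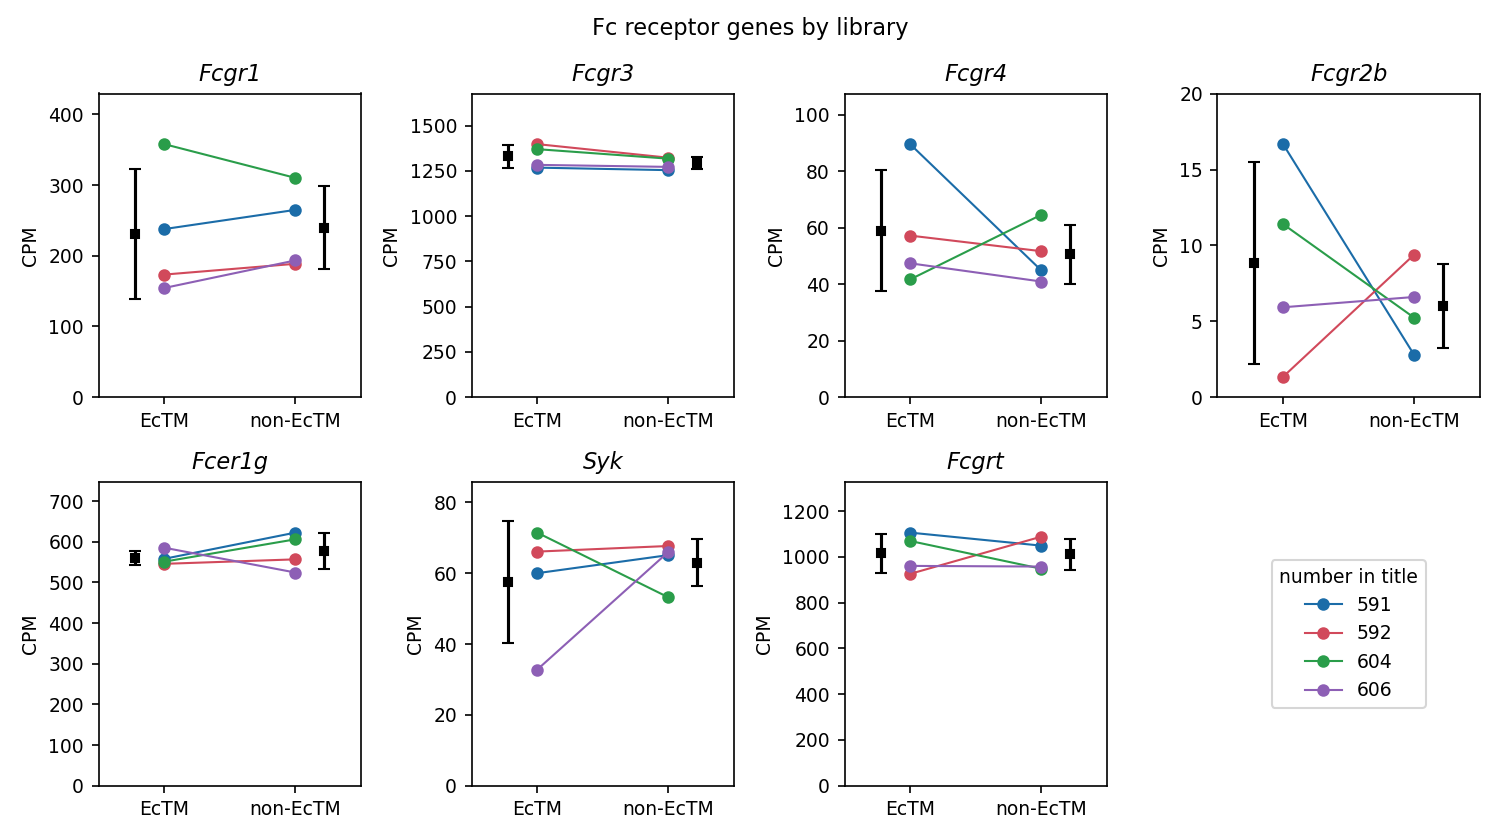
CPM of 7 genes in each EcTM library (left) and non-EcTM library (right), with a line between libraries of equal number and the mean ± SD of each group as a black square (n = 4). Fcgr3 is nearly flat, Fcgr1 keeps a like order of numbers in both groups, and the lines of Fcgr2b and Fcgr4 cross.

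The inhibitory receptor gene Fcgr2b (chromosome 1, 170960558 to 170976071) had few reads. Its counts were 35, 3, 26 and 15 in E591, E592, E604 and E606, against 7, 24, 12 and 20 in N591, N592, N604 and N606. E591 and E604 were the highest EcTM libraries and E592 the lowest of all, so the pairs went in opposite directions, from -2.24 to 2.28 on the log2 scale. The means were 8.84 ± 6.65 CPM in EcTM, against 6.00 ± 2.76 CPM in non-EcTM (SD, n = 4 each). The log2 fold change was 0.32 ± 0.88 (SE; edgeR adjusted p = 0.994). The interval ran from 0.355-fold to 4.42-fold, so it holds large differences in both directions. The size of difference that could be detected for Fcgr2b was not computed. Without E591 and N591 the log2 fold change turned to -0.44, and without E604 and N604 to -0.04. An antisense gene, Gm38204, overlaps Fcgr2b in GENCODE, and whether the counting used strand is not stated. When the reads of Fcgr2b were added to those of Fcgr3, an alternative chosen after the data were seen, the log2 fold change of the sum was 0.04 (edgeR adjusted p = 0.975).

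Fcer1g (Entrez 14127, chromosome 1, 171229572 to 171234349), which encodes the gamma chain whose ITAM is shown above, had 558, 546, 551 and 585 CPM in E591, E592, E604 and E606, against 622, 557, 605.8 and 524 CPM in N591, N592, N604 and N606. EcTM lay below non-EcTM in 3 of 4 pairs, and E606 against N606 went the other way. The means were 560 ± 17.6 CPM in EcTM, against 577 ± 45.1 CPM in non-EcTM (SD, n = 4 each). The log2 fold change was -0.04 ± 0.08 (SE; edgeR adjusted p = 0.990), with an interval from 0.863-fold to 1.10-fold.

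The reads of a receptor relative to those of Fcer1g give a measure within each library that does not depend on scaling. As log2 ratios of counts, the EcTM minus non-EcTM difference averaged 0.08 ± 0.16 for Fcgr3, -0.06 ± 0.34 for Fcgr1 and 0.22 ± 0.68 for Fcgr4 (SD over 4 pairs). Each SD exceeded its mean, and Fcgr3 was above 0 in 3 of 4 pairs. No p-value was computed for these ratios, which combine members of the group.

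Syk (chromosome 13, 52582610 to 52648792), the kinase that docks on the phosphorylated ITAM, had 60.0, 66.1, 71.5 and 32.8 CPM in E591, E592, E604 and E606, against 65.1, 67.7, 53.2 and 66.0 CPM in N591, N592, N604 and N606. E606 was the lowest library and N604 the next lowest, and the other 6 spanned 60.0 to 71.5 CPM. Syk averaged 57.6 ± 17.2 CPM in EcTM, against 63.0 ± 6.62 CPM in non-EcTM (SD, n = 4 each). Its log2 fold change was -0.18 ± 0.24 (SE; edgeR adjusted p = 0.976), with an interval from 0.632-fold to 1.24-fold. Without E606 and N606 it turned to 0.08.

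Inpp5d, which encodes the phosphatase SHIP1 that limits the signal, was listed at 0 in all 8 libraries and could not be compared. A count of 0 allows up to 3 counts, or 1.02 to 1.39 CPM of the library totals, but this limit covers counting error only. Rac1 and Ptpn11, which most cells express, and Itgam, a marker of macrophages, were also at 0 in all 8 libraries, so the 0 of Inpp5d is not read as absence of its RNA. Inpp5d has 4 curated RefSeq transcripts. Among the genes of 5 pathway lists and the macrophage markers, a selection made after earlier results were known, 0 of 36 with 1 curated transcript were at 0, and 18 of 52 with at least 2 were. That count left out the 8 genes of the group and the list of other Fc-binding proteins, where 7 of 12 were at 0. The whole table did not show this contrast, with 42.5% of genes at 0 among those with 1 curated transcript, 40.6% among those with 2 and 38.6% among those with 3 or more. The counts are not per gene length, and levels are not ranked between genes.

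Fcgrt (Entrez 14132, chromosome 7, 45092993 to 45103822) encodes the heavy chain of the neonatal Fc receptor. EcTM libraries had 1106, 926, 1070 and 961 CPM in the order of their numbers, and non-EcTM libraries had 1049, 1088, 948 and 958 CPM. The EcTM library was the higher of its pair for 3 of 4 numbers and the lower for E592 against N592, and the groups overlapped. It averaged 1016 ± 86.1 CPM in EcTM, against 1011 ± 68.9 CPM in non-EcTM (SD, n = 4 each). The log2 fold change was 0.01 ± 0.07 (SE; edgeR adjusted p = 0.998), with an interval from 0.903-fold to 1.12-fold. Its sign depended on the libraries used, and it was -0.05 without E604 and N604 and -0.02 without E591 and N591. B2m, its partner chain, had a log2 fold change of 0.09 ± 0.06 (SE; edgeR adjusted p = 0.941).

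**Figure D3:**
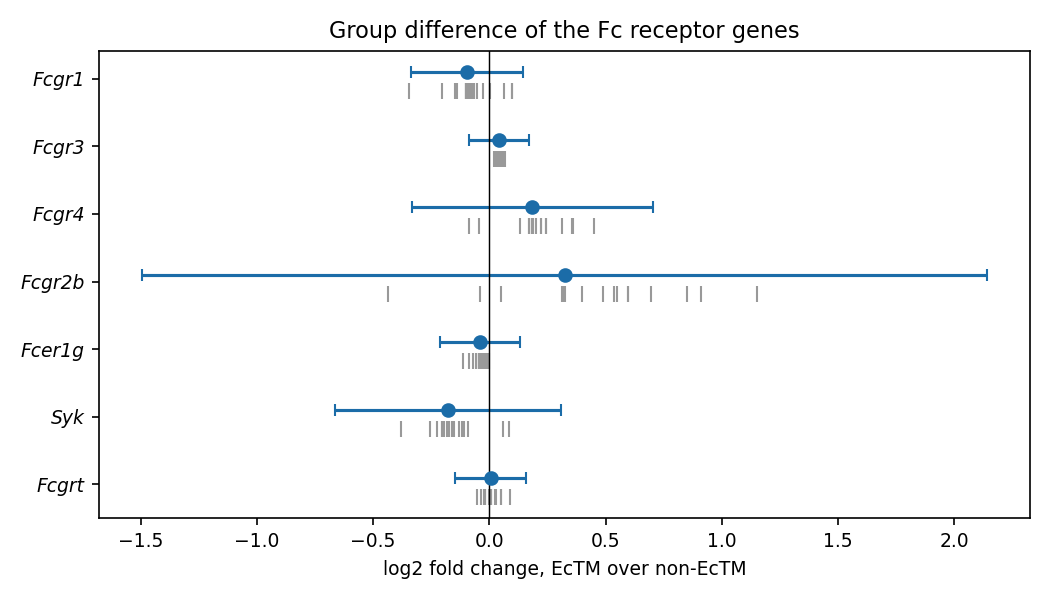
Log2 fold change of EcTM over non-EcTM for 7 genes from the paired edgeR fit (blue points, bars are 95% intervals), with the values under each alternative as grey ticks. Every interval includes 0, the narrowest being that of Fcgr3 and the widest that of Fcgr2b.

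The numbers separated Fcgr1 where the groups did not. In an edgeR quasi-likelihood test of the 4 numbers with the group in the model, 1 of the 7 genes passed, Fcgr1, at an adjusted p of 9.28e-04, and 233 of all 7667 genes, or 3.04%, passed. The means of the pairs were 251 CPM for E591 and N591, 181 CPM for E592 and N592, 334 CPM for E604 and N604 and 174 CPM for E606 and N606, and the highest was 1.92-fold the lowest. Of the squared deviations of its log2 CPM, 92.6% lay between numbers and 1.54% between groups. The 4 numbers can take up more of the deviations than the groups can. In the other 6 genes the share between numbers was 13.8% to 77.5%. It was highest in Fcgr3, which did not pass between numbers (edgeR adjusted p = 0.891). The result rests on E604 and N604, without which the adjusted p was 0.212. The adjusted p stayed between 1.11e-07 and 0.0141 in the other 10 alternatives, including all leave-outs of the other numbers. E592 and N592 differed in sex from the rest, with 1 and 8 counts of Xist against 935 to 1682 in the other libraries. With 1 number of that sex, sex and number cannot be told apart, and a part of sex in Fcgr1 was not tested. The other 6 genes had adjusted p-values of 0.862 to 0.990 between numbers.

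B2m showed the same order of the highest numbers. It had 1779, 1417, 2350 and 1587 CPM in E591, E592, E604 and E606, against 1759, 1339, 2131 and 1457 CPM in N591, N592, N604 and N606. E604 and N604 were the highest and E591 and N591 the next, as for Fcgr1, and the test between numbers gave B2m an edgeR adjusted p of 1.07e-05. Fcgrt did not pass in the same test (edgeR adjusted p = 0.866). A difference between the responses of B2m and Fcgrt to number was not tested.

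**Figure D4:**
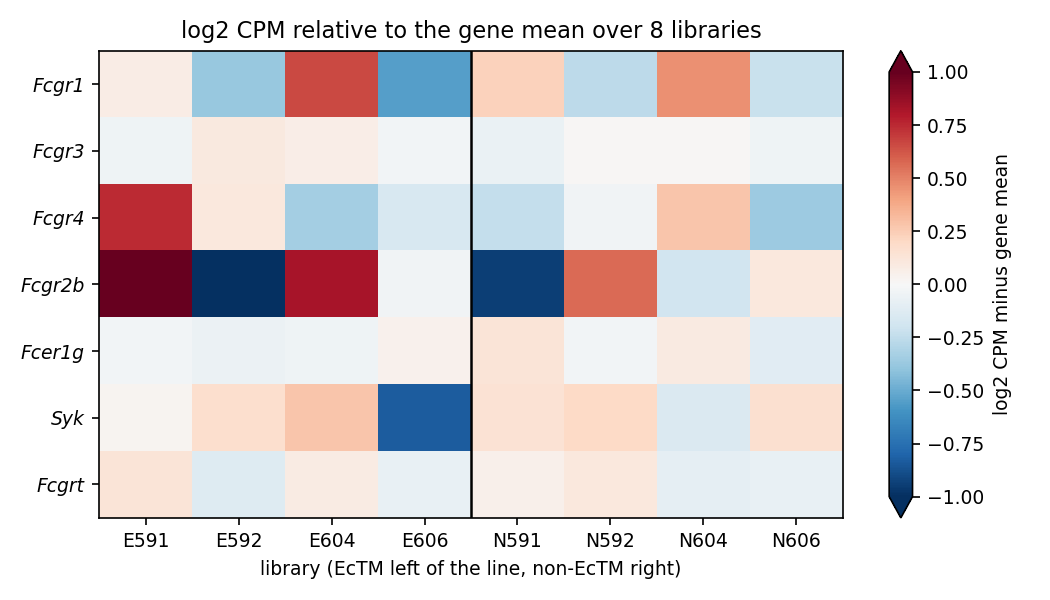
Log2 CPM of 7 genes in each library minus the mean of the gene over 8 libraries, with EcTM left and non-EcTM right of the line and colours saturating at ±1. Fcgr1 is high in E604 and N604 and low in E592, E606, N592 and N606, while the deep colours of Fcgr2b fall on different numbers in the groups.

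By a fixed rule, the genes whose pattern over the 8 libraries was most like that of Fcer1g were sought among 3806 genes whose mean log2 CPM was at least 5. They were Rere, Rpl8 and Baz1b, with root-mean-square differences of 0.05, 0.06 and 0.06 in centred log2 CPM. Fcer1g itself had an SD of 0.08 over the libraries, so these genes shared mostly its small variation.

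In 6 lists of the wider pathway 45 genes were tested, and 0 passed in the paired edgeR fit in either direction, where 0.013% of all tested genes passed. The count was also 0 under every alternative, which included 27 to 63 of the listed genes. DESeq2 gave an adjusted p to 2660 of 14319 genes, and a gene without one could not be called there. Among the Src-family and Tec kinases, which act next to the receptor, 2 of 8 genes could be tested, and 4 were at 0 in all libraries, Src among them. Btk had a log2 fold change of 0.19 ± 0.17 and Fgr of -0.45 ± 0.72 (SE; edgeR adjusted p = 0.964 and 0.984).

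Among adaptors and effectors downstream of Syk, 20 of 27 genes were tested, 12 had log2 fold changes above 0 and 8 below, and the median was 0.03. The 3 with the smallest unadjusted p are given although they did not pass. Pik3ap1, an adaptor for phosphoinositide 3-kinase, had 684 ± 65.4 CPM in EcTM, against 593 ± 37.6 CPM in non-EcTM (SD, n = 4 each), a log2 fold change of 0.20 ± 0.08 (SE; edgeR adjusted p = 0.871), and was higher in 4 of 4 pairs. Pik3r1, a regulatory subunit of that kinase, had 0.34 ± 0.16 (edgeR adjusted p = 0.907). Cdc42, a GTPase of the actin machinery, had -0.24 ± 0.13 (edgeR adjusted p = 0.930) and was lower in 4 of 4 pairs.

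The NADPH oxidase makes the oxidative burst that follows receptor engagement, and 5 of its 6 listed genes were tested. Their median log2 fold change was 0.14, with 3 above 0 and 2 below. Ncf4, a cytosolic subunit, had 139, 106, 118 and 102 CPM in E591, E592, E604 and E606, against 98.5, 88.1, 99.4 and 75.9 CPM in N591, N592, N604 and N606. Of the 45 tested genes of the pathway lists, only Ncf4 had groups that did not overlap, against 2.7% of all tested genes in either direction. In that direction, higher in EcTM, the share of all tested genes was 1.29%. The log2 fold change of Ncf4 was 0.36 ± 0.16 (SE) and did not pass (edgeR adjusted p = 0.897). Cybb, the catalytic subunit, had 0.14 ± 0.06 with the same adjusted p and 4 of 4 pairs higher in EcTM, and Rac2 had 0.14 ± 0.13 (edgeR adjusted p = 0.964).

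Phosphatases and inhibitory partners had 12 of 21 genes tested, 7 above 0 and 5 below, and a median log2 fold change of 0.05. The inhibitory lectin Siglece had 0.20 ± 0.15 and the adaptor Dok3 -0.22 ± 0.19 (SE; edgeR adjusted p = 0.964 for each). Of the other ITAM receptors and adaptors 5 of 13 were tested, with a median of 0.04. Tyrobp, the ITAM adaptor related to the gamma chain, had 306 ± 36.1 CPM in EcTM, against 280 ± 13.3 CPM in non-EcTM (SD, n = 4 each) and a log2 fold change of 0.12 ± 0.10 (SE; edgeR adjusted p = 0.964). Cd300ld had 0.04 ± 0.08 and Pilrb1 0.19 ± 0.64 (edgeR adjusted p = 0.990 and 0.994). Among other Fc-binding proteins B2m was the 1 of 12 tested, and 7, including the IgE receptor genes Fcer1a, Ms4a2 and Fcer2a, were at 0 in all libraries.

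**Figure D5:**
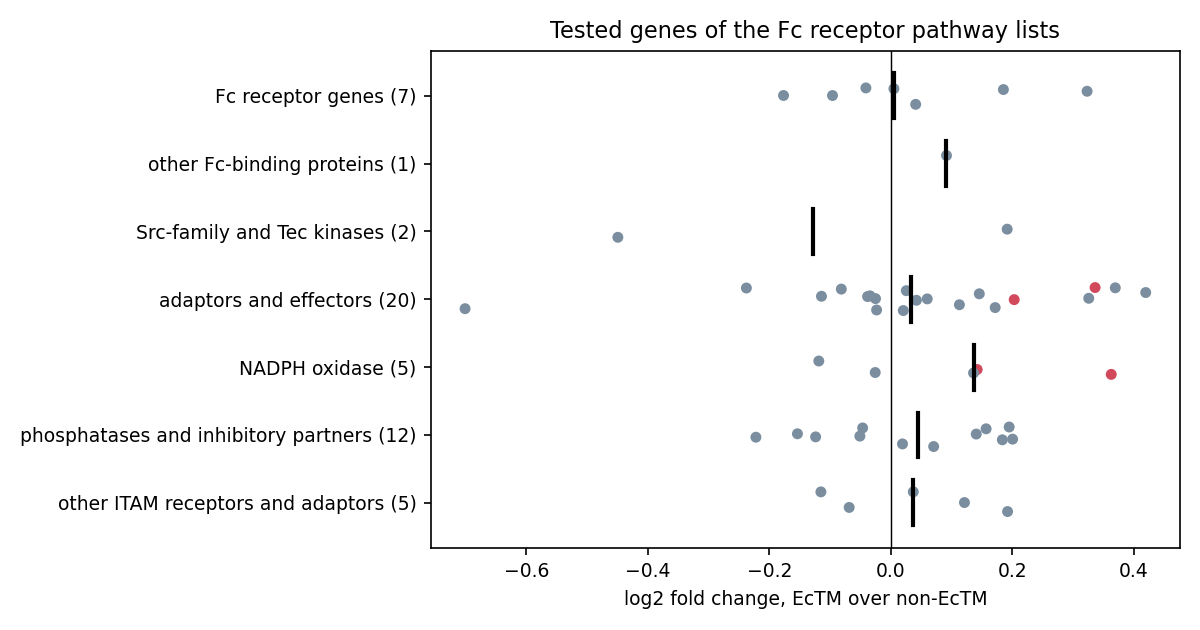
Log2 fold changes of EcTM over non-EcTM for the tested genes of the Fc receptor group and of 6 pathway lists (number tested in brackets), with black bars at the medians and red points for an unadjusted p under 0.05. The red points are Pik3ap1, Pik3r1, Cybb and Ncf4, none of which passed after adjustment over all genes, and list medians lie between -0.13 and 0.14.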

How the data were processed

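Total RNA libraries were made with a stranded kit for picogram inputs. Per the submitters' processing notes, the authors used bcl2fastq 2.17, TopHat on mm10, DESeq2 and R 3.2. The counting program, gene models, strand use and read length were not given in the sources used here. Deposited in 1 table were raw read counts, used for every test, and log2 values made by the authors, headed CPM, which reach 17.7 and fall to -2.11. In the deposited log2 values the EcTM minus non-EcTM mean differences of the 7 genes ran from -0.08 to 0.09. Differences were compressed on that scale in genes with few reads. E591 against N591 differed by 0.28 in Fcgr2b and 0.49 in Fcgr4, against 2.28 and 0.98 in log2 CPM. The range is therefore no check on the size of differences in these genes.

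Genes passing filterByExpr were compared in edgeR 4.0.16 (R 4.3.3) with TMM scaling, a quasi-likelihood test with the number as a replicate block, and Benjamini-Hochberg adjustment at 0.05. The block follows the paired rule for this gene group. After removal of group means, libraries of the same number correlated at 0.12 to 0.19 across genes and others at -0.13 to 0.05. SEs were derived from the F statistic, and log2 CPM used a prior count of 2. DESeq2 1.42.0 and limma-voom (limma 3.58.1) were alternatives. The fits were tested on simulated data. Curated transcripts were RefSeq accessions of GRCm38.p6, matched for 24447 of 24516 genes by Entrez number, and its coordinates are given. Sequences came from GENCODE M21, figures from matplotlib 3.10.9.

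Named genes were the 8 genes, up to 3 per list with the smallest unadjusted p, those past the threshold and those most like Fcer1g; a gene that the rule names is not reported here. Genes named for their numbers (B2m, Cd300ld and the macrophage markers) and the list members at 0 were chosen after their values were seen. The genes and lists were chosen with earlier results of these data known.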

Additional observations from a re-analysis of the deposited data

How the results depend on the processing

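The Fc receptor and pathway genes called between groups stayed at 0 under all 20 alternatives, which included 3 to 7 and 27 to 63 of them. In DESeq2 not every included gene had an adjusted p. The fit with no replicate block gave Fcgr3 a log2 fold change of 0.04, Fcer1g -0.04, Fcgr1 -0.05 and Fcgr4 0.22. Over all tested genes the count was 1 with the replicate block, 0 without it, 10 with no filter on low counts, 26 in DESeq2, 19 in limma-voom, 0 among genes with 1 curated transcript, and 0 to 2 when libraries were left out. Fcer1g and Fcgr3 kept their sign throughout, at -0.11 to -0.00127 and 0.02 to 0.07. When libraries were left out, log2 fold changes ranged from -0.344 to 0.0992 for Fcgr1, -0.438 to 1.15 for Fcgr2b, -0.0876 to 0.451 for Fcgr4, -0.0527 to 0.0872 for Fcgrt and -0.381 to 0.0848 for Syk. Single libraries left out of the fit with no replicate block turned the sign of Fcgr1 (0.0648 without E592, 0.0992 without E606, 0.00159 without N591 and 0.0974 without N604), Fcgr4 (-0.0440 without E591), Fcgrt (-0.0341, -0.0200, -0.0240 and -0.0186 without E591, E604, N604 and N606) and Syk (0.0596 without E606). Genes differing between numbers were 233, and 350 with no filter, 442 in DESeq2 and 146 to 179 with a number left out; the Fc receptor genes among them were 0 to 1, and the adjusted p of Fcgr1 was 9.74e-04 to 0.212. With fewer numbers the fits have fewer samples. Fcgr2b had the fewest reads, 142 in all, and the widest interval, and the parts of depth and of spread between libraries in it were not tested. Intervals give the uncertainty of the mean difference within the pairs of these 8 libraries.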

Other observations

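Of the genes that differed between numbers, 4 others were chosen after their values were seen. Markers of other cells differed too: 4 of 4 tested endothelial and 2 of 3 tested fibroblast markers passed between numbers. Of tested macrophage markers 3 of 12 passed, and of cardiomyocyte markers 0 of 3, where 3.04% of all tested genes passed. Cd14, the co-receptor for bacterial lipopolysaccharide, was lowest in E604 and N604, with a mean of 1327 CPM against 1673 to 1996 CPM in the other pairs (edgeR adjusted p between numbers 5.76e-04). The lysozyme gene Lyz2 was also lowest there, at 5183 CPM against 5664 to 6458 CPM (edgeR adjusted p 0.00551), and so was the activating receptor gene Cd300ld, at 527 CPM against 633 to 787 CPM (edgeR adjusted p 0.0234). The fractalkine receptor gene Cx3cr1 was highest in E604 and N604, at 1385 CPM, with 1252 CPM in E606 and N606, 988 CPM in E591 and N591 and 1014 CPM in E592 and N592 (edgeR adjusted p 0.00644).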
